A study of Mus musculus with 17 samples.

Results

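The 33 genes described here carry out or control the making of cholesterol and fatty acids, and were found by gene name in an RNA-seq count table of 43346 genes from mouse bile duct. They fell into 17 enzymes of the sterol branch, 10 enzymes of the fatty acid branch and 6 regulators of the SREBP system. All 33 were in the table and all 33 passed the filter on low counts that left 15795 genes for testing. The study concerns extrahepatic cholangiocarcinoma, in which the ducts between liver and gut turn malignant, and its 17 samples carry a single label, bile duct tissue. The labels used here give no genotype, treatment, age or tumour status for any sample, so no condition could be compared. Each count column bears a code followed by a number, and 6 codes occur: R62848, R62850, R63289, R63496 and R63500 with 3 libraries each, and R63494 with 2 libraries. The sources used here do not say what a code stands for, or whether libraries of a code came from separate animals. Each p-value below therefore measures only whether codes differ by more than the libraries within a code, a spread that may be technical.

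Cells make cholesterol from acetyl-CoA through the mevalonate pathway, whose product farnesyl diphosphate is joined to squalene, closed to the ring of lanosterol and trimmed to cholesterol. Fatty acids are built from the same acetyl-CoA by the carboxylase and the fatty acid synthase, and are then lengthened by elongases and given double bonds by desaturases. Most of these genes are classical targets of the SREBP transcription factors. SREBP2 favours the sterol genes and SREBP1 the fatty acid genes. Scap carries the SREBP precursors from the endoplasmic reticulum to the Golgi for cleavage, and the Insig proteins hold them back when sterols are plentiful. Bile duct cells are exposed to bile, which carries cholesterol, and their membranes need both lipids.

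The libraries held between 16400556 and 24152314 counts (median 17886041), and the smallest count of any of the 33 genes in a library was 107. Levels are CPM, the library-scaled counts of the tested genes, after TMM scaling, and RPKM divides these by the gene length in the table, in kilobases. Cholangiocyte markers were abundant in every library: Krt19 stood at 1003 to 1684 CPM and Epcam at 778 to 1193 CPM. Other features also set the codes apart, and their part in the results below was not tested. Y-linked genes had counts in 5 libraries, those coded R62850 and R63494, and in none of the other 12. Summed markers of pancreatic acinar cells reached 5200 to 121600 CPM in the R62850 libraries and at most 32.4 CPM elsewhere. Summed fibroblast markers were lowest in R63494, at 2567 to 2822 CPM, against 4216 to 11380 CPM in the other libraries. In whole tissue, fewer cells of a type and less RNA per cell cannot be told apart.

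Promoters from RefSeq, on build GRCm38.p6, were found for 26 of the 33 genes. Each spans 250 bases before to 50 bases after a start site. Shown are those of Hmgcs1 and Idi1, the sterol genes that spread most between codes, of Msmo1 from the later sterol steps, of the regulator Insig1 and of Fasn, the fatty acid synthase. They run 5′ to 3′ along the gene, at chr13:119690101-119690400 (plus strand), chr13:8885356-8885655 (plus strand), chr8:64733529-64733828 (minus strand), chr5:28071162-28071461 (plus strand) and chr11:120824498-120824797 (minus strand). Capitals mark CCAAT, the letters bound by the NF-Y factor that works beside SREBP, in either orientation (so also as its reverse complement), and TCACNCCAC, a form of the sterol regulatory element.
Hmgcs1: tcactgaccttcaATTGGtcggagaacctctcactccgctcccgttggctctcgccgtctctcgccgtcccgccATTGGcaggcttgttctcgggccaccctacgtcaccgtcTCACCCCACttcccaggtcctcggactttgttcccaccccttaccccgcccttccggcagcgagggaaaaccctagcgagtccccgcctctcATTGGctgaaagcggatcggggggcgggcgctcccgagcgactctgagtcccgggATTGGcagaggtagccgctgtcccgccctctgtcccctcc
Idi1: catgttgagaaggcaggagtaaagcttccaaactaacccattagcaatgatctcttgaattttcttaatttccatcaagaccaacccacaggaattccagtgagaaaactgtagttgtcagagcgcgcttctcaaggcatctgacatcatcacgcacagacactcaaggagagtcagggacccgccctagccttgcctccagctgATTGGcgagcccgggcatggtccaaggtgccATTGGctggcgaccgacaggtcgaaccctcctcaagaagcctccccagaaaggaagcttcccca
Msmo1: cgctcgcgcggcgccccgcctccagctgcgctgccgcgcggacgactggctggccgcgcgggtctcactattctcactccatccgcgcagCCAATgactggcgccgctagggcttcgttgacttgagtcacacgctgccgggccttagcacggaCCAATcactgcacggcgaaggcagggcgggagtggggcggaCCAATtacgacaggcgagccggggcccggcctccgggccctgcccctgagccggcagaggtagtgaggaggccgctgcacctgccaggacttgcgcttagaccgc
Insig1: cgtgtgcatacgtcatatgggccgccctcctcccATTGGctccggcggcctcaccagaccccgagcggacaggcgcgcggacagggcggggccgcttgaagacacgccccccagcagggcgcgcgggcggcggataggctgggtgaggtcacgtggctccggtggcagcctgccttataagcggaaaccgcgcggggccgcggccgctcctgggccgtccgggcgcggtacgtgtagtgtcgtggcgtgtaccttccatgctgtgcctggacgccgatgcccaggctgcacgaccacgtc
Fasn: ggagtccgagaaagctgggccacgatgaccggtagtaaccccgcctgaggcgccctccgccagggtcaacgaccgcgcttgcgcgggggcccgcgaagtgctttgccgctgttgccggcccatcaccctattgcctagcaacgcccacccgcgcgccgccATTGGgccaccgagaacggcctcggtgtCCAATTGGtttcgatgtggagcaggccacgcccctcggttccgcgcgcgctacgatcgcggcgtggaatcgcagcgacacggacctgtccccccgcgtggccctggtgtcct

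These letters were counted by branch, with few genes that had a promoter in each. CCAAT, searched on both strands, stood in a promoter of 14 of 14 sterol enzymes, 4 of 7 fatty acid enzymes and 4 of 5 regulators, against 42.1% of 10786 tested genes with a promoter. Hmgcs1 held 4 copies and Msmo1 held 3, whereas Insig1 held 1. In Fasn the copy that begins 62 bases before the start shares letters with the one at 59. GGGCGG, the letters of an Sp1 site, stood in 13 of 14 sterol enzymes, 4 of 7 fatty acid enzymes and 5 of 5 regulators, against 65.9% of tested genes. The sterol element form TCACNCCAC was found in Hmgcs1 alone among the 26 genes, 137 bases before the start, against 1.48% of tested genes. A shorter form, CANCCCAC, stood in Hmgcs1 and Idi1, against 9.3% of tested genes. In Hmgcs1 the shorter form lies inside the longer one, which holds only where N is C. A match of letters is a description of the window and no proof of a bound site. The RefSeq start sites of Hmgcs1 and Fasn, and 1 of those of Pmvk, lie outside the gene as the count table draws it. For Pmvk, CCAAT stood only in the promoter of that outside start site. Some promoters of Dhcr7, Insig2, Me1 and Srebf1 also lacked CCAAT, and a gene counted where any of its promoters held the letters. Fads1, Scd1, Fdft1, Sqle, Fdps, Scd2 and Stard4 had no promoter in the set used.

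Per length, the stearoyl-CoA desaturase Scd2 was the most abundant of the 33 genes, with a median of 262 RPKM and a range of 189 to 393 RPKM. Scd1, its close paralog and the main form in liver, had a median of 6.93 RPKM and ran from 2.83 to 14.5 RPKM. The desaturases of polyunsaturated fatty acids were also high, Fads2 with a median of 143 RPKM and Fads1 with 70.1 RPKM. The malic enzyme Me1, which supplies NADPH, had 85.7 RPKM, the citrate-cleaving enzyme Acly 37.6 RPKM and Fasn 24.9 RPKM. The fatty acid list thus spanned a wider range than the sterol list, since the acetyl-CoA carboxylase Acaca and the elongase Elovl6 had medians of 2.33 and 2.55 RPKM. Acss2, which makes acetyl-CoA from acetate, had a median of 12.8 RPKM.

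Among sterol enzymes the farnesyl diphosphate synthase Fdps led with a median of 99.5 RPKM, followed by the HMG-CoA synthase Hmgcs1 with 64.3 RPKM, the squalene synthase Fdft1 with 44.0 RPKM and the mevalonate diphosphate decarboxylase Mvd with 41.8 RPKM. The lanosterol demethylase Cyp51 (31.0 RPKM) and the sterol isomerase Ebp (30.5 RPKM) came next. The middle of the branch was narrow in level: the sterol reductase Tm7sf2, the sterol desaturase Sc5d, the methylsterol oxidase Msmo1, the squalene epoxidase Sqle, the phosphomevalonate kinase Pmvk, the last reductase Dhcr7, the sterol dehydrogenase Nsdhl and the mevalonate kinase Mvk had medians of 10.8 to 21.0 RPKM. The isopentenyl diphosphate isomerase Idi1 (8.15 RPKM), the lanosterol synthase Lss (5.87 RPKM) and the ketosteroid reductase Hsd17b7 (3.61 RPKM) closed the list. Of the regulators, Srebf2 and Srebf1, which encode SREBP2 and SREBP1, had medians of 50.5 and 47.2 RPKM. Insig1 had 36.0, Scap 25.2, Insig2 14.3 and the sterol carrier Stard4 9.85 RPKM. Many neighbours in these orders overlap in their ranges over the 17 libraries, as the plot of levels per gene length shows.

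**Figure D1:**
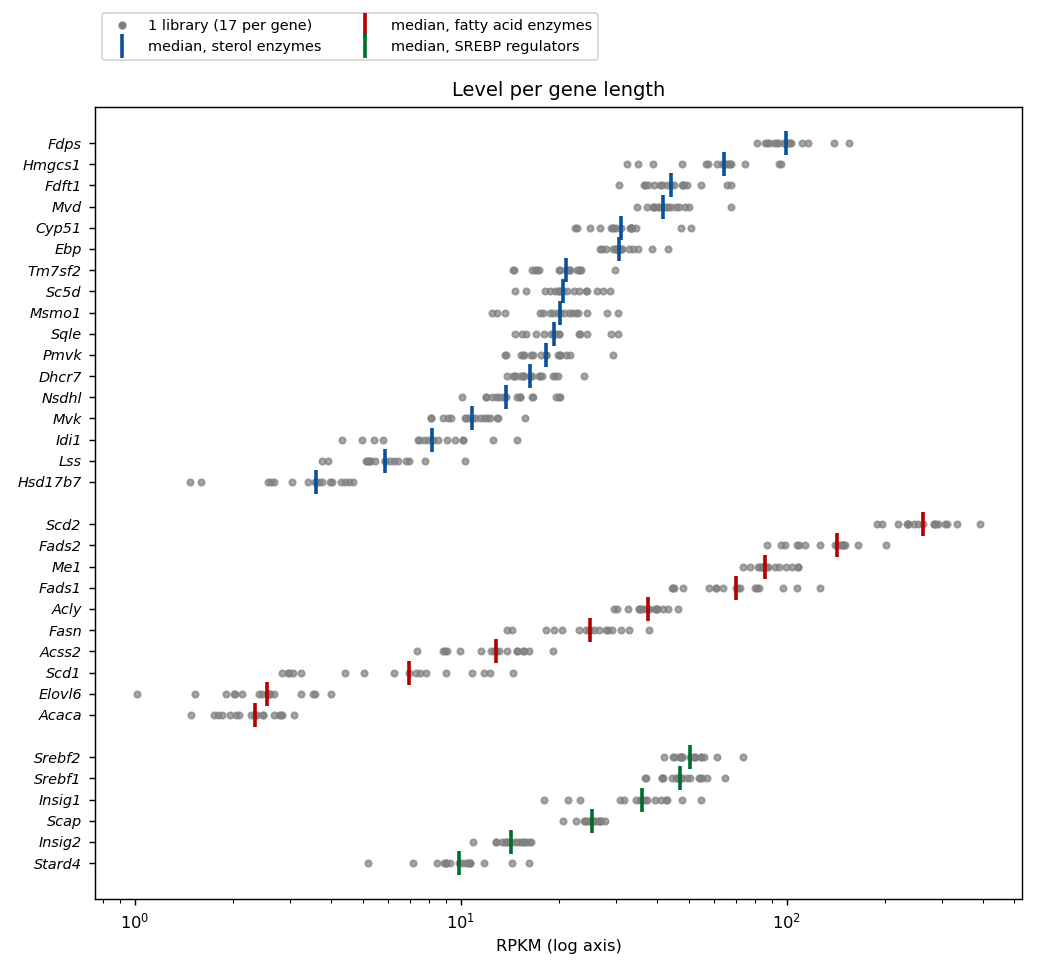
RPKM of each of the 33 genes on a log axis. Grey points are the 17 libraries and coloured ticks are medians for sterol enzymes (blue), fatty acid enzymes (red) and SREBP regulators (green). Scd2 tops the fatty acid list at a median of 262 RPKM while Acaca stands at 2.33 RPKM, a wider span than that of the sterol enzymes from Fdps at 99.5 to Hsd17b7 at 3.61 RPKM.

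Nearly all of these genes differed between codes. The edgeR quasi-likelihood F test over the 6 codes, with Benjamini-Hochberg adjustment over all tested genes and a threshold of 0.05, called 16 of 17 sterol enzymes and 10 of 10 fatty acid enzymes. It called 4 of 6 regulators, and 48.7% of all tested genes. The genes not called were Ebp (adjusted p = 0.185), Insig2 (adjusted p = 0.152) and Scap (adjusted p = 0.167). The median distance between the highest and the lowest code mean was 0.81 on the log2 scale for sterol enzymes, 0.96 for fatty acid enzymes and 0.61 for regulators, against 0.58 for all tested genes. Scd1 had the widest distance of the 33 genes, 1.80, or 3.48-fold, and Scap the narrowest, 0.24. To say which codes lay apart, each code was then set against the unweighted mean of the other codes, with adjustment over all genes and all 6 such contrasts together. These contrasts share libraries, so they are not independent of each other.

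**Figure D2:**
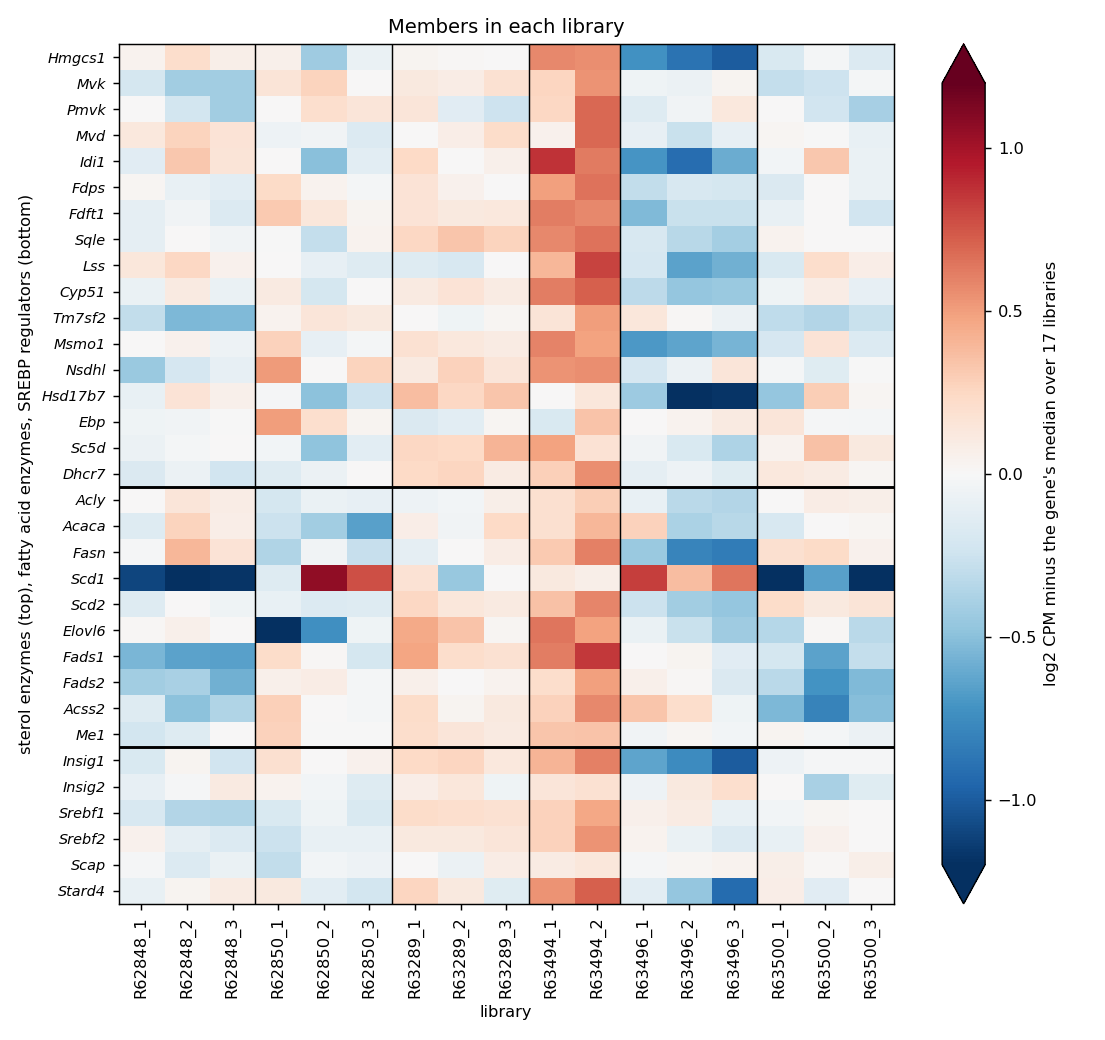
The 33 genes (rows) in the 17 libraries (columns), coloured by log2 CPM minus the median of that gene over all libraries. Red is above and blue below the median, and colours are capped at 1.2. The R63494 columns are red in nearly every row, the R63496 columns are blue in most sterol rows and in Insig1, and Scd1 follows an order of its own.

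In the sterol branch the R63494 libraries stood highest. The contrast called 15 of 17 sterol enzymes higher in R63494 than in the other codes and none lower, where 9.01% of all tested genes were called higher and 10.3% lower. The difference was positive for all 17 enzymes, with a median of 0.56 on the log2 scale, or 1.48-fold, against 0.01 for all tested genes. The highest code mean was that of R63494 for 15 of 17 enzymes, and 21.6% of all genes had theirs there. For 12 of 17 enzymes both R63494 libraries lay above every one of the other libraries, which held for 4.43% of all genes. The enzymes that overlapped were Mvk, Mvd, Hsd17b7, Ebp and Sc5d. Without library R63494_2 the count called was 11 of 17, and Mvk, Pmvk, Mvd and Tm7sf2 were no longer called. Sc5d lost its call without R63494_1, and also without several single libraries of other codes.

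The R63496 libraries stood at the other end of the sterol branch. The contrast called 11 of 17 enzymes lower in R63496 than in the other codes and none higher, where 7.6% of all genes were called lower and 6.1% higher. The median difference was −0.35 on the log2 scale, or 0.78-fold, and 1 enzyme, Tm7sf2, had a positive value (0.10, adjusted p = 0.412). The lowest code mean was that of R63496 for 10 of 17 enzymes, against 15.2% of all genes, and that of R62848 for another 5, against 19.1%. For 7 of 17 enzymes, Hmgcs1, Idi1, Fdps, Fdft1, Lss, Cyp51 and Msmo1, all 3 R63496 libraries lay below every other library, which held for 1.13% of all genes. The calls of Sc5d and Dhcr7 rested on single libraries. Dhcr7 lost its call when any of the R63496 libraries was left out and Sc5d when R63496_2 or R63496_3 was, and both also lost it without several single libraries of other codes.

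Hmgcs1, which makes the HMG-CoA that commits acetyl groups to the mevalonate pathway (chr13:119690462-119708086 on mm10), showed both ends most plainly. It had 310 and 306 CPM in the R63494 libraries, 126, 113 and 104 CPM in the R63496 libraries, and 154 to 240 CPM in the other 12. The groups did not overlap. Its log2 difference from the other codes was 0.77 ± 0.09 (SE) in R63494 (adjusted p = 5.41e-06) and −0.95 ± 0.09 in R63496 (adjusted p = 2.84e-07). Idi1, which interconverts the building blocks of isoprenoids (chr13:8885501-8892451), had 52.0 and 43.9 CPM in R63494, 17.5, 15.2 and 18.9 CPM in R63496, and 20.2 to 35.7 CPM in the other 12 libraries. It had the widest distance between codes in the branch, 2.78-fold from R63494 to R63496. Its log2 difference was 0.87 ± 0.13 in R63494 (adjusted p = 7.93e-05) and −0.91 ± 0.13 in R63496 (adjusted p = 4.82e-05).

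Fdps, the most abundant sterol enzyme (chr3:89093592-89101967), had 174 and 193 CPM in the R63494 libraries, against a lowest value of 100, a median of 121 and a highest value of 144 CPM elsewhere. It was higher in R63494 by 0.62 ± 0.07 (adjusted p = 8.53e-06) and lower in R63496, where it had 100 to 108 CPM (log2 difference −0.35 ± 0.07, adjusted p = 0.0012). Hsd17b7 (chr1:169949535-169969241) broke the order at the top. It was highest in R63289, with 23.9, 21.9 and 23.1 CPM, where the contrast called it higher by 0.53 ± 0.15 (adjusted p = 0.0195). That call was lost without R63289_1 or R63289_3. In R63494 it had 18.4 and 20.2 CPM, inside the range of the other libraries, and in R63496 it had 13.6, 7.52 and 8.13 CPM and had a log2 difference of −0.95 ± 0.17 (adjusted p = 0.000639). Ebp (chrX:8185329-8193512) varied least, from 61.9 to 99.8 CPM, and the 2 R63494 libraries held its lowest value, 61.9, and a value of 89.2 CPM.

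Several steps after farnesyl diphosphate were also highest in R63494 and lowest in R63496. Fdft1 averaged 190 CPM in R63494 and 123 CPM in the other codes, and Cyp51 averaged 211 CPM in R63494 and 127 CPM in the other codes. Lss stood at 83.5 and 111 CPM in the R63494 libraries and at 40.5 to 75.0 CPM elsewhere. Msmo1 stood at 76.8 to 83.8 CPM in R63496, against 108 to 187 CPM elsewhere, a log2 difference of −0.76 ± 0.08 (adjusted p = 3.39e-06). The early kinases were not called at the low end. Mvk averaged 28.3 ± 1.2 CPM in R63496 (SD, n = 3) and 30.0 CPM in the other codes, a log2 difference of −0.06 that was not called (adjusted p = 0.699), and Pmvk likewise had −0.05 (adjusted p = 0.836). Their lowest code was R62848, where Mvk averaged 22.8 ± 1.9 CPM and was called lower (adjusted p = 0.00236).

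The remaining codes had fewer calls in the sterol branch. R62848 had 4 of 17 enzymes called lower, namely Mvk, Tm7sf2, Nsdhl and Dhcr7, where 9.54% of all genes were called lower, and none called higher, against 13.9%, although 1 was without R62850_1, R63494_2 or R63496_1. R63289 had 3 of 17 called higher, Sqle, Hsd17b7 and Sc5d, against 4.15% of all genes, and none lower, against 3.7%. Leaving out any single R63289 library cut that count to 1. R62850 had Sc5d called lower and none higher, where 11.6% of all genes were called lower and 10.8% higher, and without R62850_2 no sterol enzyme was called lower there, while 1 was called higher. Without R63494_2, 2 were called higher in R62850. R63500 had Tm7sf2 called lower and none higher, against 8.36% and 12.6% of all genes, and the count lower was 2 without R63494_1, R63496_1, R63500_2 or R63500_3. In each library the number of sterol enzymes above their own median over all libraries gave the same picture, 15 and 17 of 17 in R63494, 13 to 14 in R63289, and 1 to 4 in R63496.

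**Figure D3:**
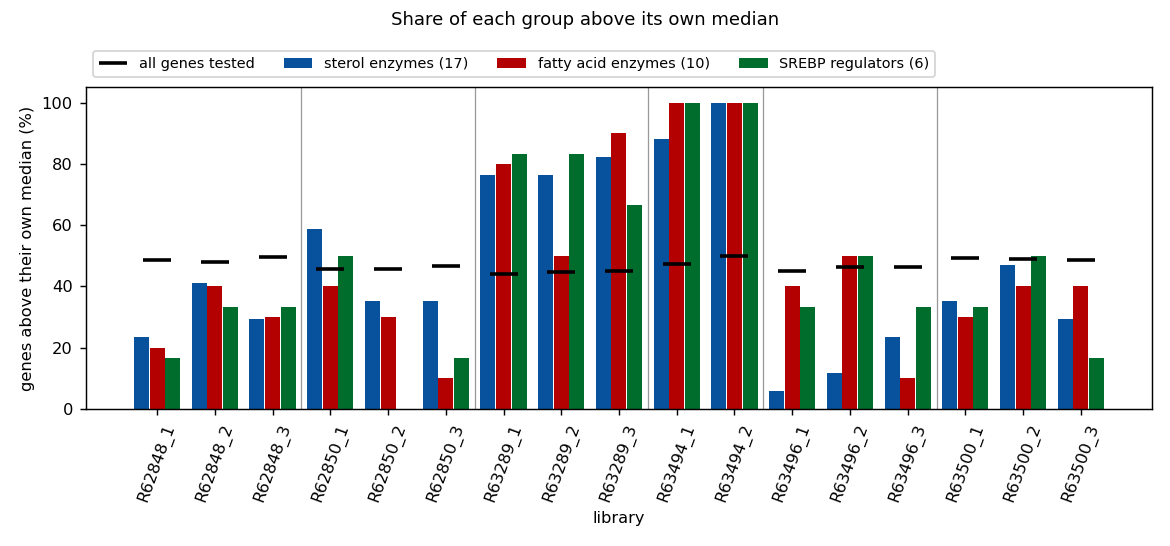
Share of the 17 sterol enzymes (blue), 10 fatty acid enzymes (red) and 6 regulators (green) above their own median over the 17 libraries, in each library; black marks give the same share for all tested genes, 44.2% to 49.8%. The R63494 libraries have 15 and 17 of 17 sterol enzymes and 10 of 10 fatty acid enzymes above the median, and in R63496 the sterol bars are shorter than the fatty acid bars in 2 of 3 libraries.

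The fatty acid branch shared the R63494 end and split at the other. The contrast called 8 of 10 fatty acid enzymes higher in R63494 and none lower, where 9.01% of all tested genes were called higher and 10.3% lower. The difference was positive for all 10, with a median of 0.54 on the log2 scale, or 1.45-fold. The 2 enzymes not called were Acaca (0.39, adjusted p = 0.0595) and Scd1 (0.29, adjusted p = 0.42). The code mean of R63494 was the highest for 9 of 10, all but Scd1, against 21.6% of all genes. For 6 of 10 both of its libraries lay above every other library, which held for 4.43% of all genes. Without library R63494_2 the count called was 5 of 10, since Acly, Acss2 and Me1 lost their calls, and without R63494_1 it was Elovl6 and Me1 that lost theirs. In the other codes the branch broke into sets of enzymes that were low in different places.

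Fasn, Scd2 and Acly were low in R63496. Fasn (chr11:120805940-120824178) had 180, 142 and 137 CPM in the R63496 libraries, against a lowest value of 190, a median of 257 and a highest value of 372 CPM elsewhere, with a log2 difference of −0.80 ± 0.10 (adjusted p = 1.65e-05). Scd2 (chr19:44293676-44306864) had 1195, 1068 and 1032 CPM there, against 1277 to 2141 CPM elsewhere, with a log2 difference of −0.50 ± 0.07 (adjusted p = 6.51e-05). For both genes no R63496 library overlapped another library. In R63494, Scd2 had 1822 and 2141 CPM, above every other library, and was higher by 0.52 ± 0.08 (adjusted p = 9.21e-05), whereas Fasn had 305 and 372 CPM and overlapped library R62848_2 at 323 CPM. Acly averaged 167 ± 17 CPM in R63496 (SD, n = 3) and 207 CPM in the other codes (adjusted p = 0.00337). These were the 3 of 10 fatty acid enzymes called lower in R63496, against 7.6% of all genes.

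Fads1, Fads2, Acss2 and Scd1 were low in R62848 and R63500 instead. These 4 enzymes were called lower in both codes, and with Me1 they made up the 5 of 10 called lower in R62848, against 9.54% of all genes, and the 4 of 10 called lower in R63500, against 8.36%. Fads1 (chr19:10182888-10196870), which makes arachidonic and eicosapentaenoic acid, had 166, 155 and 154 CPM in R62848 and 209, 156 and 199 CPM in R63500. It had 371 and 437 CPM in R63494 and 209 to 336 CPM in the remaining libraries. Its log2 difference was −0.75 ± 0.10 in R62848 (adjusted p = 2.56e-05), −0.45 ± 0.10 in R63500 (adjusted p = 0.00277) and 0.88 ± 0.10 in R63494 (adjusted p = 5.76e-06). Fads2 (chr19:10064164-10101503), the desaturase that acts before it, followed it with 145 to 165 CPM in R62848, 131 to 172 CPM in R63500, and 250 and 304 CPM in R63494. Acss2 averaged 85.0 ± 9.2 CPM in R63500 (SD, n = 3) and 141 CPM in the other codes (adjusted p = 4.81e-05). Without library R62848_2 the count called lower in R62848 was 3, Acss2 and Me1 losing their calls, and without R62848_1 Me1 lost its own.

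In R63496 none of these enzymes was called lower. Fads1 averaged 237 CPM in R63496 and 259 CPM in the other codes (−0.05, adjusted p = 0.786), Fads2 211 and 205 CPM (0.08, adjusted p = 0.55), and Acss2 147 and 129 CPM (0.23, adjusted p = 0.091). The codes R62848 and R63500 were also those with the highest summed fibroblast markers, 9730 to 10510 and 9378 to 11380 CPM, against 4216 to 6213 CPM in R63496, and the part of this difference in tissue makeup was not tested.

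Scd1 and Scd2 lie in the same gene cluster on chromosome 19 and introduce the same double bond, but their RNAs ran in different orders. Scd1 (chr19:44394451-44407709) had 30.2, 70.2 and 57.1 CPM in R62850 and 59.6, 43.4 and 52.2 CPM in R63496. It had 15.6, 13.7 and 14.8 CPM in R62848, 14.3, 21.3 and 14.3 CPM in R63500, and 24.5 to 37.9 CPM in the 5 libraries of R63289 and R63494. R63496, the code with the least Scd2, was therefore among those with the most Scd1. The contrasts called Scd1 higher in R62850 by 0.96 ± 0.19 (adjusted p = 0.00243) and in R63496 by 0.93 ± 0.19 (adjusted p = 0.00292). They called it lower in R62848 (log2 difference −1.25 ± 0.22, adjusted p = 0.0013) and in R63500 (−1.03 ± 0.22, adjusted p = 0.00417). It was the 1 fatty acid enzyme called higher in R62850, against 10.8% of all genes, and in R63496, against 6.1%, and without R63496_3 the count in R63496 was 2. Per length, Scd2 exceeded Scd1 by 16.1-fold to 39.3-fold in R62850, by 17.5-fold to 21.8-fold in R63496 and by 64.2-fold to 103-fold in R63500. The sources used here do not say how reads shared by such paralogs were counted.

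Adipocyte markers, taken as a sum, were highest in the codes with the most Scd1. The list of 10 stood at 53.4 to 129 CPM in R62850 and 39.5 to 55.3 CPM in R63496, against 15.3 to 42.7 CPM in the other libraries. Its defining members were near 0: Adipoq averaged 3.96 CPM in R62850, 2.17 CPM in R63496 and 0.08 to 1.22 CPM in the other codes, and 4 of the 10 markers passed the filter on low counts. Of these, 3 were called higher in R62850, against 10.8% of all genes, and none in R63496, against 6.1%. Single markers also went the other way, since Fabp4 was called higher in R62848 (0.99, adjusted p = 0.0387) and Cidea in R63500 (0.64, adjusted p = 0.0127), the codes where Scd1 was lowest. Among the other lipid genes, Mlxipl, which encodes the carbohydrate-responsive factor ChREBP, had its highest code means in the same codes, 14.8 CPM in R63496 and 12.4 CPM in R62850, against 5.54 to 10.2 CPM in the other codes. The part of fat cells in the Scd1 values was not tested.

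**Figure D4:**
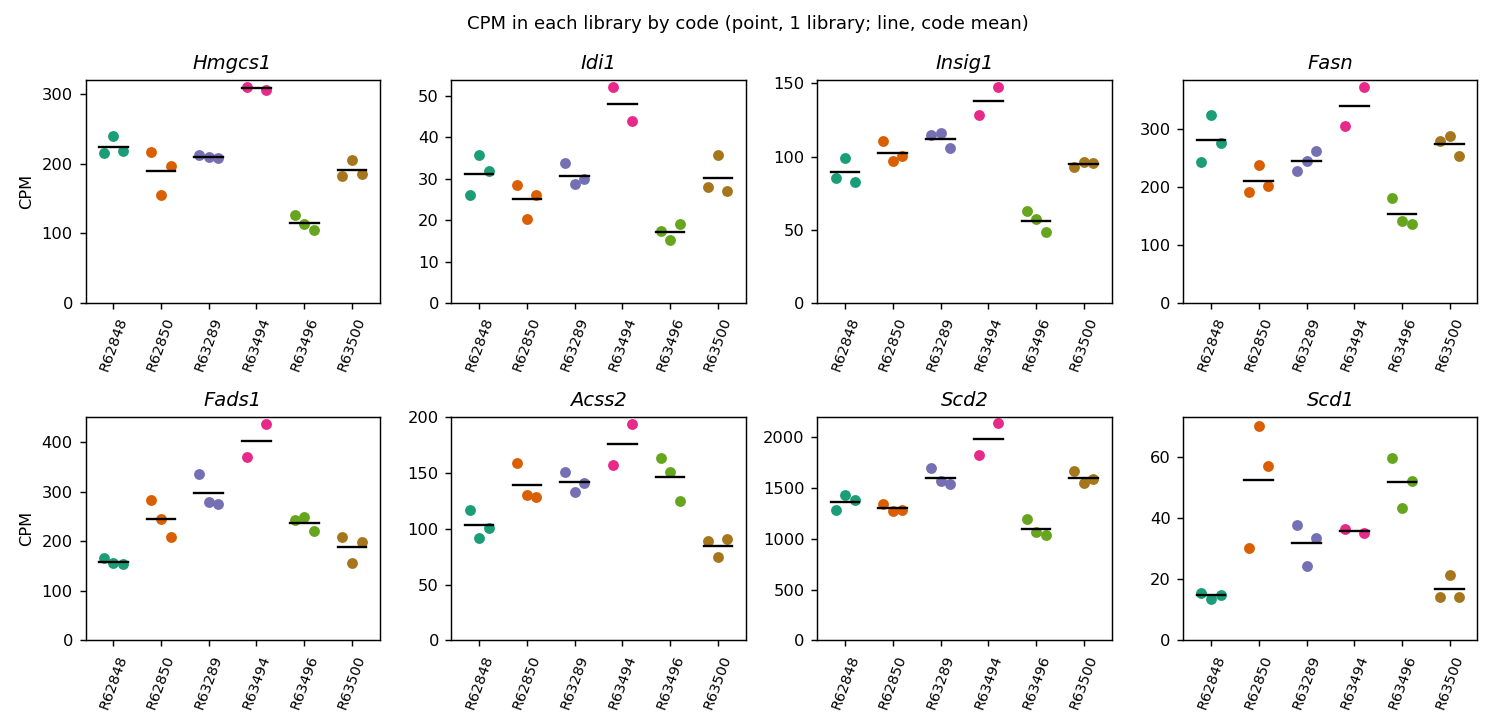
CPM of 8 genes in each library by code, with lines at code means; axes start at 0. Hmgcs1, Idi1 and Insig1 are highest in R63494 and lowest in R63496, Fads1 and Acss2 are lowest in R62848 and R63500, and Scd1 is highest in R62850 and R63496, where Scd2 is lowest.

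Elovl6 (chr3:129532386-129638495), which lengthens palmitate, was again different. It had 23.7 and 21.2 CPM in R63494, above every other library, and was lowest in R62850, with 6.03, 9.11 and 14.6 CPM, with a log2 difference of −0.71 ± 0.18 (adjusted p = 0.00981). That call was lost without R62850_1 or R62850_2. Acaca and Scd2 were the other fatty acid enzymes called lower in R62850, where 11.6% of all genes were. The Acaca call was lost without R62850_3, and that of Scd2 (adjusted p = 0.0465) without any of the R62850 libraries or several of other codes, so that 1 enzyme was left when R62850_1 or R62850_3 was removed. Me1 (chr9:86581371-86695953) varied least in the branch, from 283 to 418 CPM, yet both R63494 libraries, at 416 and 418 CPM, lay above the rest, whose highest value was 401 CPM. In R63289, Fads1 alone was called higher (0.35, adjusted p = 0.0113), and not without R63289_1, whereas 2 enzymes were called higher there without R62850_3.

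**Figure D5:**
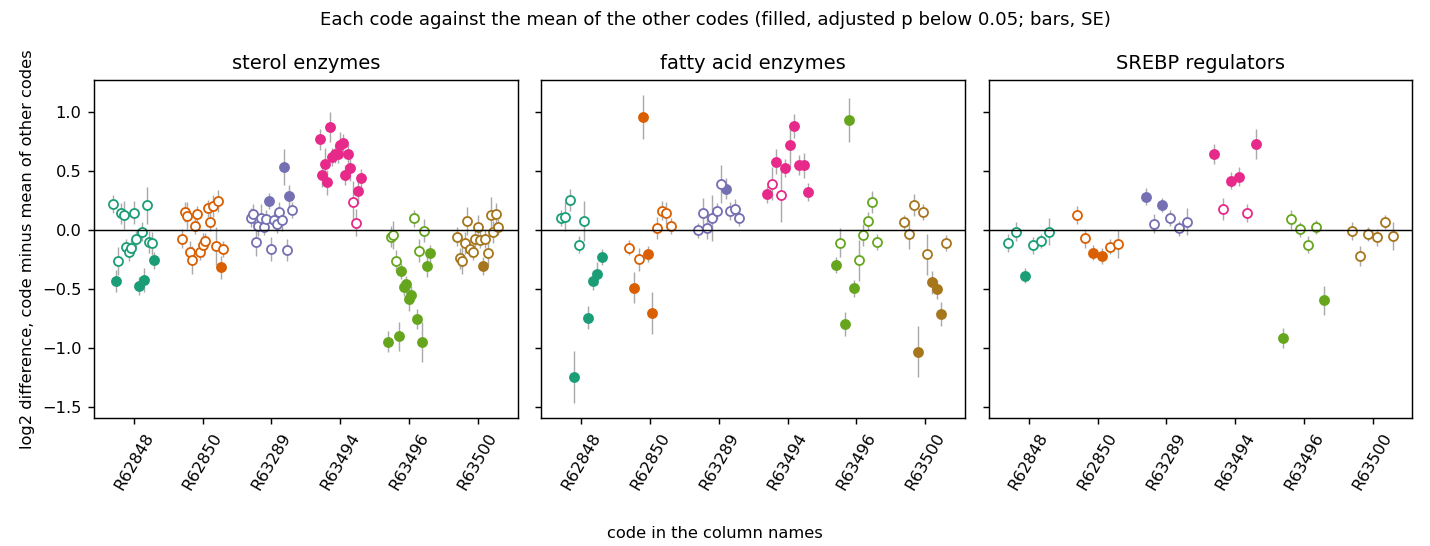
Log2 difference of each code from the mean of the other codes, 1 point per gene, with SE bars and filled points for adjusted p below 0.05. In R63494 15 of 17 sterol enzymes, 8 of 10 fatty acid enzymes and 4 of 6 regulators are filled above 0; in R63496 11 sterol enzymes are filled below 0 while Scd1 stands at 0.93.

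Among the regulators, Insig1, which is itself a classical SREBP target, ran with the sterol enzymes. Insig1 (chr5:28071363-28078662) had 129 and 148 CPM in the R63494 libraries, 62.7, 57.3 and 48.6 CPM in the R63496 libraries, and 83.0 to 116 CPM in the other 12. Neither code overlapped the others. It was higher in R63494 by 0.64 ± 0.08 (adjusted p = 2.46e-05) and lower in R63496 (log2 difference −0.92 ± 0.08, adjusted p = 2.1e-07). Stard4, which carries cholesterol between membranes, had 80.1 and 90.5 CPM in R63494, 50.3, 39.9 and 29.0 CPM in R63496 and 47.2 to 65.8 CPM elsewhere, and was called in both codes (0.72 ± 0.13, adjusted p = 0.000689, and −0.60 ± 0.12, adjusted p = 0.00222).

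The transcription factors themselves rose in R63494 and were not called in R63496. Srebf2 (chr15:82147266-82205376) had 305 and 367 CPM in R63494, against a lowest value of 210, a median of 238 and a highest value of 279 CPM elsewhere, and was higher by 0.45 ± 0.08 (adjusted p = 0.000511). Srebf1 (chr11:60199089-60222581) had 322 and 366 CPM in R63494, against 207, 260 and 309 CPM as the lowest, median and highest elsewhere, and was higher by 0.41 ± 0.07 (adjusted p = 0.000441). In R63496 their differences were −0.13 (adjusted p = 0.232) for Srebf2 and 0.00 (adjusted p = 0.988) for Srebf1. Srebf1 was called lower in R62848, where it averaged 216 ± 14 CPM against 286 CPM in the other codes (adjusted p = 0.000296). Scap (chr9:110333293-110384935) ran from 87.8 to 118 CPM and Insig2 from 37.9 to 57.1 CPM, and no contrast called either. In R62850, Srebf1 (adjusted p = 0.0389) and Srebf2 (adjusted p = 0.034) were called lower, and in R63289 Insig1 (adjusted p = 0.0119) and Srebf1 (adjusted p = 0.0244) were called higher. Each of these calls was lost when some single libraries were left out, R62850_1 for Srebf1 and Srebf2 in R62850 and R63289_1 for Insig1 and Srebf1 in R63289 among them. In all, 4 of 6 regulators were called higher in R63494, against 9.01% of all genes, and 2 of 6 lower in R63496, against 7.6%. In R62850, 2 of 6 were called lower, against 11.6%, in R63289 2 of 6 higher, against 4.15%, and in R62848 1 of 6 lower, against 9.54%.

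The values that set R63494 apart from other codes covered more than lipid genes. Summed heat shock genes stood at 4440 to 4697 CPM in R63494, against 1026 to 3465 CPM elsewhere, with Hspa1b at a mean of 1292 CPM in R63494 and of 29.5 to 531 CPM in the other codes. Summed macrophage markers were at 614 to 786 CPM in R63494 and 921 to 1446 CPM elsewhere, and proliferation genes at 122 to 126 CPM against 151 to 294 CPM. Summed hepatocyte markers stood at 531 to 671 CPM in R63494, within the 188 to 888 CPM of the other libraries. Most of that sum was Ttr, with a mean of 585 CPM in R63494, where Alb averaged 3.88 CPM. Ahsg was called lower in R63494 (−1.67, adjusted p = 0.00105), and Ttr, Alb and Cyp2e1 were not called there. Summed cholangiocyte markers in R63494, 7329 to 7814 CPM, lay within the range of the other libraries, 6403 to 9160 CPM. In R63496 the heat shock sum was 1026 to 1235 CPM and the cholangiocyte sum 8031 to 9160 CPM. The heat shock sum was also low in R63289, at 1110 to 1143 CPM. It stood at 1380 to 1697 CPM in R62848, 2523 to 2898 CPM in R62850 and 1998 to 3465 CPM in R63500. The part of these features in the lipid gene differences was not tested. Within the 5 libraries that had Y-linked counts, R63494 set against R62850 alone gave 11 of 17 sterol and 7 of 10 fatty acid enzymes called higher, against 9.96% of all genes, while Ebp and Scd1 had negative differences there that were not called. Within the 12 without such counts, R63496 set against R62848, R63289 and R63500 gave 10 of 17 sterol and 3 of 10 fatty acid enzymes called lower, against 12.1%. In that comparison Tm7sf2 and the fatty acid enzymes Scd1, Fads2 and Acss2 were called higher, against 9.88% of all genes. Both of these comparisons, that of R63494 and that of R63496, were chosen after seeing the data. Each was adjusted over all genes of that contrast alone, unlike the main contrasts.

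Neighbouring genes of the pathways were also counted. Of 13 genes for SREBP processing and turnover, 5 differed between codes, a smaller share than the 48.7% of all tested genes. Syvn1, a ubiquitin ligase of the endoplasmic reticulum, had the widest distance (0.98, adjusted p = 7.29e-06), with means of 135 CPM in R63494 and 68.7 CPM in R63496. Sec23a, a coat protein of the vesicles that leave the endoplasmic reticulum, came next (0.61, adjusted p = 0.00129) and was highest in R62848, at 46.7 CPM. The proteases that cleave SREBPs, Mbtps1 and Mbtps2, were not called (adjusted p = 0.251 and 0.0586). Of 12 other mevalonate and isoprenoid genes, 5 differed, also near or below that 48.7%. Acat2, the cytosolic thiolase that feeds Hmgcs1, was lowest in R63496 at 31.9 CPM, where it was called lower (−0.39, adjusted p = 0.00427), and Nus1, of dolichol synthesis, was highest in R62848 at 145 CPM (0.30, adjusted p = 0.00243).

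Genes of sterol esterification, transport and the LXR response followed more than 1 order. Of 14 such genes, 11 differed between codes, against 48.7% of all tested genes. The acyltransferase Soat1 had the widest distance (0.93, adjusted p = 0.00942), with means of 38.4 CPM in R62848, 35.8 CPM in R63500 and 20.6 CPM in R63494. Mylip, an LXR target that marks lipoprotein receptors for breakdown, ran opposite to the sterol enzymes, with 26.1 CPM in R63494 and 44.6 CPM in R63496. It was called lower in R63494 (−0.45, adjusted p = 0.0127) and higher in R63496 (0.48, adjusted p = 0.0012). Npc2 was called in the same directions (−0.26, adjusted p = 0.0368, and 0.22, adjusted p = 0.028). Abca1 and Abcg1 were not called in R63496 (adjusted p = 0.922 and 0.829), although Abcg1 was called lower in R63494 (−0.39, adjusted p = 0.0362). Lpcat3 (0.27, adjusted p = 0.0141) and Stard3 (0.275, adjusted p = 0.0254) were called higher in R63494, the direction of the sterol enzymes. Lipa was called lower in both R63494 (−0.36, adjusted p = 0.0104) and R63496 (−0.24, adjusted p = 0.042). Of 20 further genes of fatty acid and triglyceride synthesis, 18 were tested and 14 differed, against the same 48.7%. In R63494, 6 of the 18 were called higher and 2 lower, against 9.01% and 10.3% of all genes. In R63496, 2 were called higher and 3 lower, against 6.1% and 7.6%. The summed list stood at 1414 to 1480 CPM in R63494 and at 1190 to 1335 CPM in the other libraries. Gpam, the first enzyme of triglyceride synthesis, had the widest distance (1.59, adjusted p = 1.27e-05), with means of 30.6 CPM in R63500 and 29.2 CPM in R62848 and 10.6 to 16.2 CPM in the other codes. Mlxipl came next (1.39, adjusted p = 9.03e-05).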

How the data were processed

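Mouse bile duct RNA was sequenced, and the authors deposited 1 table with counts of reads per gene in 17 columns. Per the submitters' processing notes, STAR 2.6.1c, featureCounts, edgeR 3.40.2 and the build mm10 were used. The sources used here give no strand setting or annotation release, so overlapping, antisense and near-identical genes are uncertain. No column name matched a sample title, so each column stands for an unidentified sample of the single group. A further 17 columns of per-sample values were not used here, and computed RPKM stood in for the FPKM first planned. The deposited table also gave the gene length used for RPKM.

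Genes were filtered with filterByExpr and an intercept-only design, scaled by TMM and fitted with code as the only factor in edgeR 4.0.16 (R 4.3.3), with a robust quasi-likelihood fit. Log2 CPM used a prior count of 2. The SE of a contrast is its log2 value over the square root of F. The common biological coefficient of variation within codes was 15.1%. The method was tested on simulated data. DESeq2 1.42.0, other scaling, no filter and leaving out libraries were alternatives.

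Full values went to these genes of each branch: by distance between code means the widest 3 and the narrowest 1, and by median RPKM the top 2. From each pathway list came the 2 with the widest distance. Any other gene was named with its values in view. Of 141 genes in the marker and pathway lists, 140 were matched. The 33 genes and the lists were chosen with earlier results of these data known.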

Additional observations from a re-analysis of the deposited data

How the results depend on the processing

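No called difference changed sign under the alternatives run. Among differences that were not called, those of Ebp (−0.15) and Scd1 (−0.55) in R63494 turned negative against R62850 alone. Those of Mvk (0.10), Pmvk (0.14), Nsdhl (0.00), Ebp (0.08) and Fads1 (0.20) in R63496 turned positive within the libraries without Y-linked counts, and none of these was called there. Of 72 calls of a gene in a code, 69 held with DESeq2 size factors, 68 without a filter and 71 with the DESeq2 test, and 46 held whichever single library was left out. Without the R62850 libraries, 62 of the 65 calls that remained testable held. No paired analysis was possible because the running numbers in the column names do not match any label. Without a filter on low counts, 1 sterol enzyme was called higher in R62850, 1 fatty acid enzyme higher in R62848 and 2 higher in R63496. The DESeq2 test called 3 sterol enzymes lower in R63500. Without the R62850 libraries, 1 sterol enzyme was higher in R62848 and 2 fatty acid enzymes were higher in R63496. Within the 12 libraries without Y-linked counts, a comparison chosen after seeing the data and adjusted over all genes of that contrast alone, 1 sterol and 3 fatty acid enzymes were higher in R63496.

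With single libraries left out, the count of sterol enzymes ran from 11 to 15 higher in R63494, from 9 to 12 lower in R63496, from 0 to 1 higher in R62848, from 0 to 2 higher and 0 to 2 lower in R62850, from 1 to 3 higher in R63289 and from 1 to 2 lower in R63500. The count of fatty acid enzymes ran from 5 to 9 higher in R63494, from 0 to 1 higher and 3 to 5 lower in R62848, from 1 to 4 lower in R62850, from 0 to 2 higher in R63289 and from 1 to 2 higher in R63496. Where an R63494 library was left out, the lone library left was assumed to vary like the other codes. The cause of each move was not tested beyond the loss of that library. Median RPKM with plain library totals moved by less than the spread between libraries for all 33 genes. With no label for the codes and 2 libraries in R63494, these counts bear on the libraries alone.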
